A study of Mus musculus with 6 samples.

Results

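The genes that build cholesterol and fatty acids were examined in hepatic stellate cells, liver pericytes that store vitamin A. The set held 28 genes, named by symbol, of 24346 symbols listed: 16 enzymes of cholesterol synthesis, 4 regulators or sterol carriers and 8 enzymes of fatty acid synthesis. It was chosen with earlier results of these data known. All 28 were measured in every library, and all 28 passed the filter on low values. In the mevalonate arm, acetyl-CoA is condensed and converted to farnesyl diphosphate. The later enzymes join that product into squalene, close the rings and trim the sterol to cholesterol. Fatty acids are built from cytosolic acetyl-CoA, with carboxylation by acetyl-CoA carboxylase as the committed step, and are then elongated and desaturated. Both branches are driven by the SREBP transcription factors, which the INSIG proteins hold in the endoplasmic reticulum when sterols are plentiful, and in liver both are best known from hepatocytes.

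RNA sequencing covered 6 libraries from wild type C57BL/6 mice aged 35 weeks. The cells came from livers of mice fed a normal diet, from the non-tumour region of livers of mice fed a high-fat diet, or from the tumour region of such livers. Each of these 3 sources was perfused at 37 degrees and 6 degrees, and the sort kept CD49a+ cells that lacked CD31 and CD45.2. The series addressed how warm isolation affects the transcriptome, and the diet comparison follows from its design. There was 1 library per group, the labels give no replicate numbers, and nothing says whether libraries share animals or livers. For diet, region and temperature, p-values therefore measure only how far these 6 libraries stray from a sum of source and temperature effects. That spread may be technical. Where the diet difference was compared between temperatures, p-values rest instead on the spread between the high-fat regions. The groups are named below as normal diet, non-tumour and tumour at each temperature. Both high-fat sources are regions of livers with a tumour, and the labels give no tumour for normal diet livers. Diet therefore cannot be told apart here from a tumour-bearing liver. With 1 library per group, it cannot be told apart from differences between animals either. In such bulk samples, fewer cells of a type and less RNA per cell cannot be told apart.

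Depth, estimated from the steps between low values, was 1.57e+07 to 2.20e+07 fragments per library, so that a single fragment on 1 kb of transcript equalled 0.0454 to 0.0638 FPKM (fragments per kilobase, scaled to library size). Between 11056 and 11673 genes reached 1 FPKM. The stellate marker Lrat was at 335 to 538 FPKM in every library, and was higher at 37 than at 6 degrees in each source. Markers of other liver cells were also present and were uneven. In the order normal diet, non-tumour and tumour, the summed level of 16 endothelial markers was 104, 654 and 604 FPKM at 37 degrees and 1836, 4474 and 2272 FPKM at 6 degrees. For 16 macrophage markers the sums were 49.1, 35.8 and 893 FPKM at 37 degrees and 535, 631 and 2231 FPKM at 6 degrees. For 21 hepatocyte markers they were 367, 219 and 365 FPKM, and 746, 270 and 304 FPKM. Of these sums, the single marker Trf made up 266, 164 and 191 FPKM, and 293, 130 and 173 FPKM. The endothelial marker Pecam1 ranged from 0.90 to 90.6 FPKM, the leukocyte marker Ptprc from 0.375 to 16.5 FPKM and the hepatocyte marker Alb from 5.39 to 29.3 FPKM. The cholangiocyte marker Krt19 was listed at 0 in 5 of the 6 libraries.

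Promoters of sterol genes are known for sterol regulatory elements, which bind SREBPs, and for neighbouring CCAAT boxes, which bind nuclear factor Y. RefSeq promoter windows (GRCm38.p6, 250 bases before to 50 bases after an annotated start) were found for 22 of the 28 genes, in 28 windows. Stard4, Scd1, Fdps, Scd2, Sqle and Fdft1 had no entry. The windows printed below belong to an early enzyme of the mevalonate arm (Hmgcs1), to 3 of the sterol enzymes with lower values in every high-fat library (Idi1, Cyp51 and Sc5d) and to the 1 gene with higher values in every high-fat library (Elovl6). Acat2 and Nsdhl, sterol enzymes that were also lower in every high-fat library, are not printed. Each is read 5′ to 3′ on the gene's own strand. Capitals mark matches to CCAAT, which reads ATTGG when the match lies on the opposite strand, and to TCACNCCAC, a form of the sterol regulatory element. The regions are chr13:119690101-119690400 (plus strand) for Hmgcs1, chr13:8885356-8885655 (plus strand) for Idi1, chr5:4104648-4104947 (minus strand) for Cyp51, chr9:42264251-42264550 (minus strand) for Sc5d and chr3:129532136-129532435 (plus strand) for Elovl6.
Hmgcs1: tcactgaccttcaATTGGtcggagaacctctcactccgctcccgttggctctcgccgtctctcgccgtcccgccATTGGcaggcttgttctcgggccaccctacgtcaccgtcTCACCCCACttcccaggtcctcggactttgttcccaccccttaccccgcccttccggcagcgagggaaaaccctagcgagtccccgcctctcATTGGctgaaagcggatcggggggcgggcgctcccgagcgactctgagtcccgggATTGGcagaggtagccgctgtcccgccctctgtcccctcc
Idi1: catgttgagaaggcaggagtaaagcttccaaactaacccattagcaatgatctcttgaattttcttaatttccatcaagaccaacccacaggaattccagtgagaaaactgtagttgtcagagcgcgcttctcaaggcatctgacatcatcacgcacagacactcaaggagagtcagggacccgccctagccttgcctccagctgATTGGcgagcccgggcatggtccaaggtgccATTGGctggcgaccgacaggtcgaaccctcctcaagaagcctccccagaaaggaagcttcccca
Cyp51: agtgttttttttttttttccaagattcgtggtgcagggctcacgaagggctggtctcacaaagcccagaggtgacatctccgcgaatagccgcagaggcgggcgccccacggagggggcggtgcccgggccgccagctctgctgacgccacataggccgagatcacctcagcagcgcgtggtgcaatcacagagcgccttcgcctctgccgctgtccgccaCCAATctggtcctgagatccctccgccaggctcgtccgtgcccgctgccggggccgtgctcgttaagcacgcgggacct
Sc5d: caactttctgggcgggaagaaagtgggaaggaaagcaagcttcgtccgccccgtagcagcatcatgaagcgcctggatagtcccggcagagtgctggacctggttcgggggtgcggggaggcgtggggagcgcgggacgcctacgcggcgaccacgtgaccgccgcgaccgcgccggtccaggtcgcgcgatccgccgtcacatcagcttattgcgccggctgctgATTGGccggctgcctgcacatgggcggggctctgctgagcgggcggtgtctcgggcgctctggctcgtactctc
Elovl6: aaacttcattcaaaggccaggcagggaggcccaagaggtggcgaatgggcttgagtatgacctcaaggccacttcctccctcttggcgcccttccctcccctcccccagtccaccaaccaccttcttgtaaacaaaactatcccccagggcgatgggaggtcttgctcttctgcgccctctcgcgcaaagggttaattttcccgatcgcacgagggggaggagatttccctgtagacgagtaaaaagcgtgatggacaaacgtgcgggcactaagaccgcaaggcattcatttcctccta

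CCAAT was present, on either strand, in the windows of 19 of the 22 genes (86.4%), against 41.1% of all 27025 genes with a window and 42.9% of the 8828 tested genes with one. Among genes with a single window the shares were 15 of 18 (83.3%) and 38.2%. The 28 windows held 39 matches, of which 35 lay upstream of the start and 20 began between 100 and 20 bases before it. Hmgcs1 carried 4 of them, beginning at -237, -176, -45 and 11 relative to the start. Idi1 carried 2, at -45 and -14. Cyp51 and Sc5d carried 1 each, at -29 and -24. The window of Elovl6 held none, and neither did those of Acaca and Acat2, which had lower values in every high-fat library. The only Acaca window, chr11:84195188-84195487 (plus strand), lies inside the gene, whose annotated start is 84129672. The promoter at that start was not searched. TCACNCCAC was found in 1 window, that of Hmgcs1 at -137, against 1.44% of all genes. The E-box CACGTG, searched on both strands, was found for Hsd17b7, Insig1, Dhcr7 and Sc5d, 4 of 22 genes (18.2%). The shares were 8.09% of all genes and 11.8% of the tested genes with a window. Among genes with a single window they were 3 of 18 (16.7%) and 7.12%. In the printed windows no match to 1 of these motifs overlapped a match to another. These are matches of letters within a window and were not measured as binding.

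**Figure D1:**
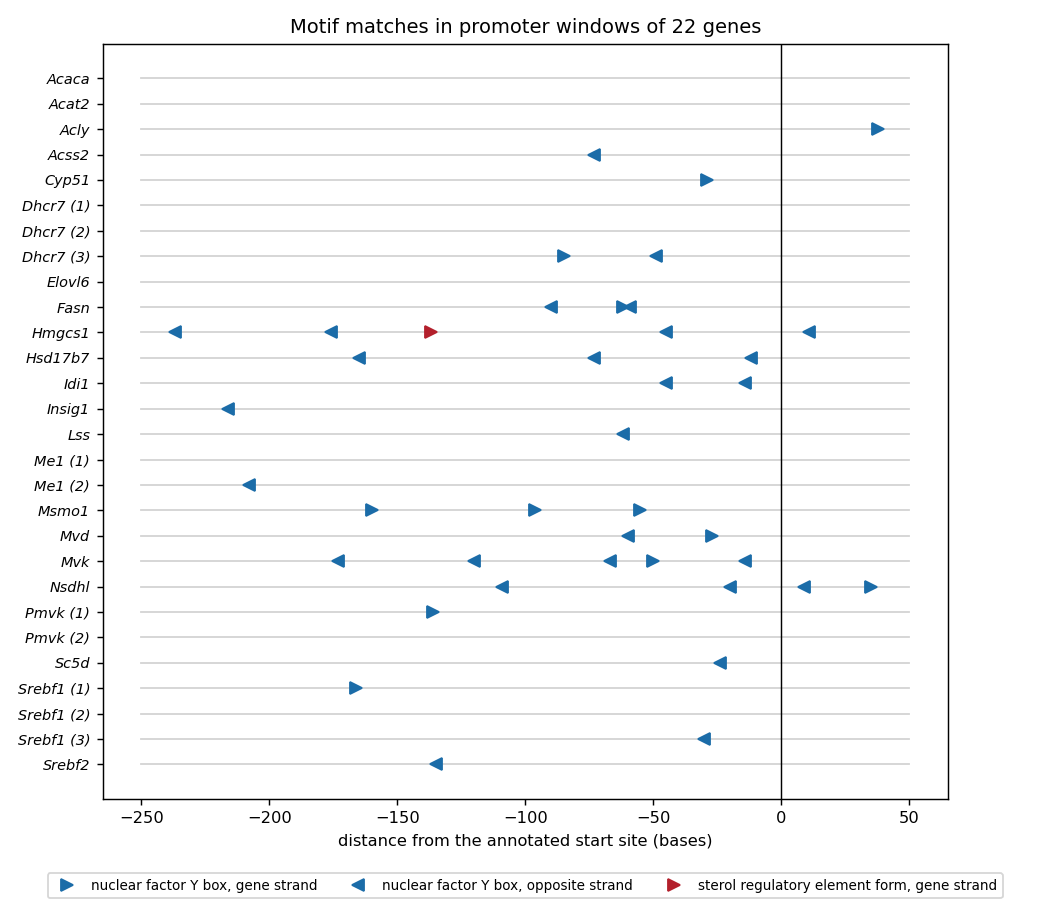
Motif matches in the promoter windows of the 22 genes with a RefSeq entry, by distance from the annotated start in bases; each grey line is 1 window, blue triangles are matches to the nuclear factor Y box and the red triangle is the sterol regulatory element form, pointing along the strand of the match. Of 39 blue matches, 35 lie to the left of the start, and the single red match belongs to Hmgcs1.

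Levels differed widely between the 28 genes. FPKM is already scaled to transcript length, so it can be set side by side between genes. The highest mean over the 6 libraries was that of Me1, the cytosolic malic enzyme that supplies NADPH, at 40.9 ± 8.95 FPKM (SD, n = 6), followed by the citrate lyase gene Acly at 36.1 ± 4.60 FPKM. The desaturase gene Scd2 followed at 24.7 ± 8.04 FPKM and Srebf1 at 19.97 ± 2.47 FPKM. The ranges of 1 SD of neighbours among these 4 genes overlapped. Fdps, at 15.0 ± 2.17 FPKM, was the highest cholesterol enzyme. At the low end, Lss was at 1.33 ± 0.46 FPKM, Hsd17b7 at 1.31 ± 0.14 FPKM and Sqle at 1.24 ± 0.30 FPKM. The 16 cholesterol enzymes summed to 80.5 to 104 FPKM per library and the 8 fatty acid enzymes to 115 to 132 FPKM. The ratio of the highest to the lowest library had a median of 1.82 over the 28 genes, against 1.51 over the 11557 genes tested. It was over 2 for 9 of the 28 genes (32.1%), against 25.7% of all genes. Srebf2 was the steadiest of the 28, with a ratio of 1.1, and Stard4 the most variable, at 5.21.

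**Figure D2:**
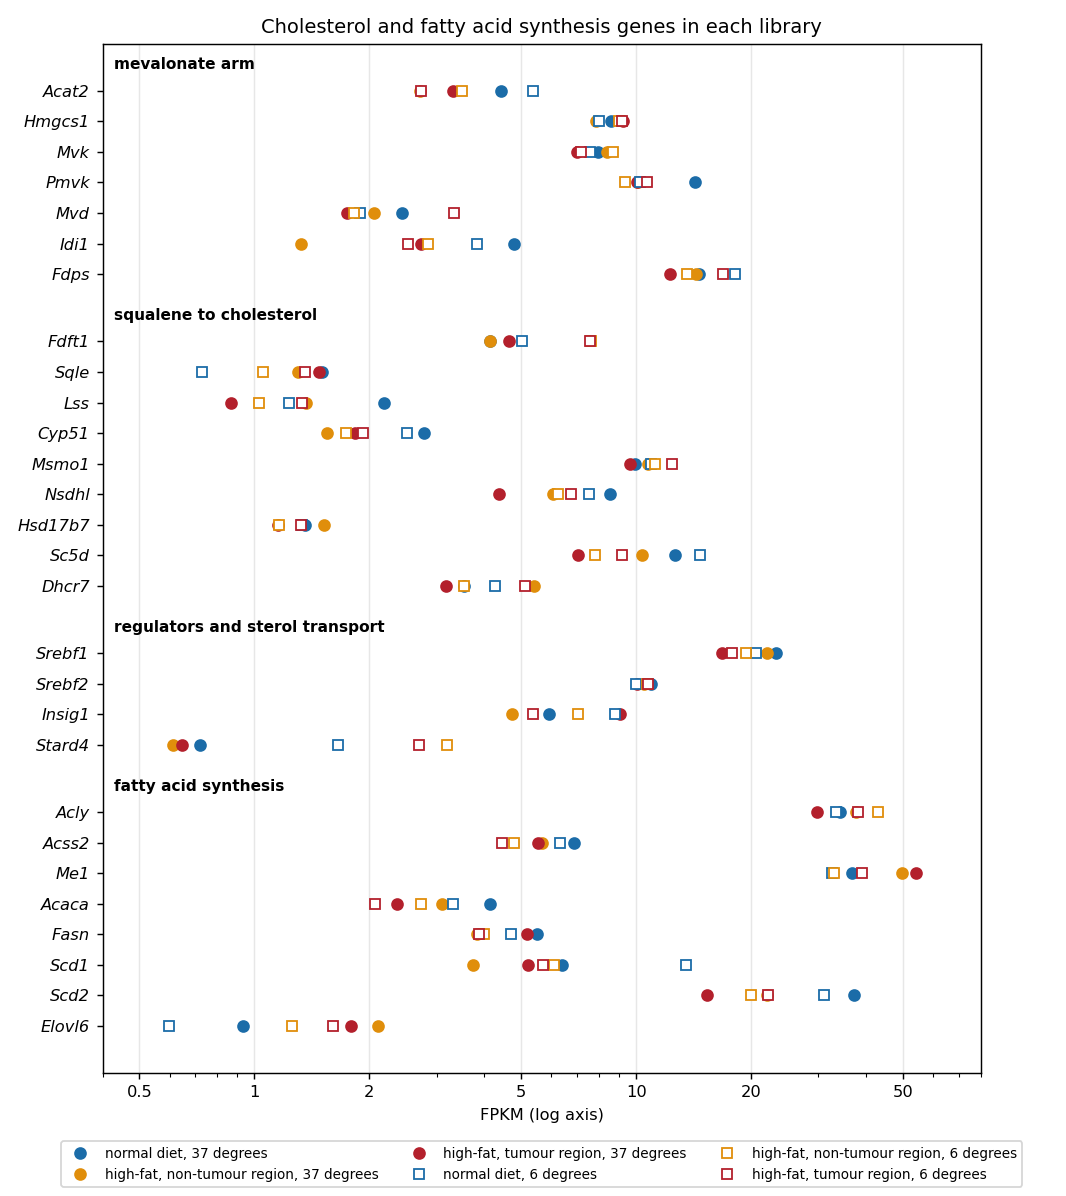
FPKM of each of the 28 genes in each of the 6 libraries (log axis, 1 point per library, genes grouped by role); filled circles are 37 degrees, open squares 6 degrees, blue normal diet, orange non-tumour and red tumour. Both blue points lie to the right of the other 4 for 9 genes, among them Scd2, Sc5d and Idi1, and to the left for Elovl6.

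In the diet comparison, the fatty acid and sterol enzymes did not move as 1 block. Values of Scd1, Scd2, Sc5d, Idi1 and Acat2 were lower in high-fat than in normal diet cells, those of Elovl6 were higher, and those of Srebf2, Mvk, Hmgcs1 and Msmo1 were close together in all 6 libraries. None of the 28 genes passed at an adjusted p under 0.05 in limma, where 10.7% of the 11557 genes tested passed (759 higher, 6.57%, and 482 lower, 4.17%). After quantile normalization the split was 529 higher and 535 lower calls. At an unadjusted p under 0.05, 8 of the 28 were lower, against 10.8% of all genes, and 2 were higher, against 16.5%. The fold change was below 0 for 16 of the 28 (46.2% of all genes) and above 0 for 12 (53.8%). Every high-fat library lay below both normal diet libraries for 9 of the 28 (32.1%, against 14.6% of all genes). These were Acat2, Idi1, Cyp51, Nsdhl, Sc5d, Acss2, Acaca, Scd1 and Scd2. Every high-fat library lay above both for Elovl6 alone (3.57%, against 15.5%). Fold changes are high-fat minus normal diet on the log2(FPKM + 1) scale, with their standard error, and understate the change of low genes. Their median was -0.17 over the 28 genes and 0.02 over all genes tested. In the same comparison 3 of 16 stellate markers rose and 2 fell (list median -0.03). Of 18 tested hepatocyte markers 4 fell (-0.34), while 7 of 16 endothelial markers (1.56) and 4 of 14 macrophage markers (1.27) rose. The macrophage rise lay mainly in the tumour region, with medians of 2.93 at 37 and 2.11 at 6 degrees, against -0.54 and 0.20 in non-tumour cells. The hepatocyte median was 0.69 at 37 degrees and -1.37 at 6 degrees. The part of hepatocytes, endothelial cells and macrophages in the diet differences was not tested.

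**Figure D3:**
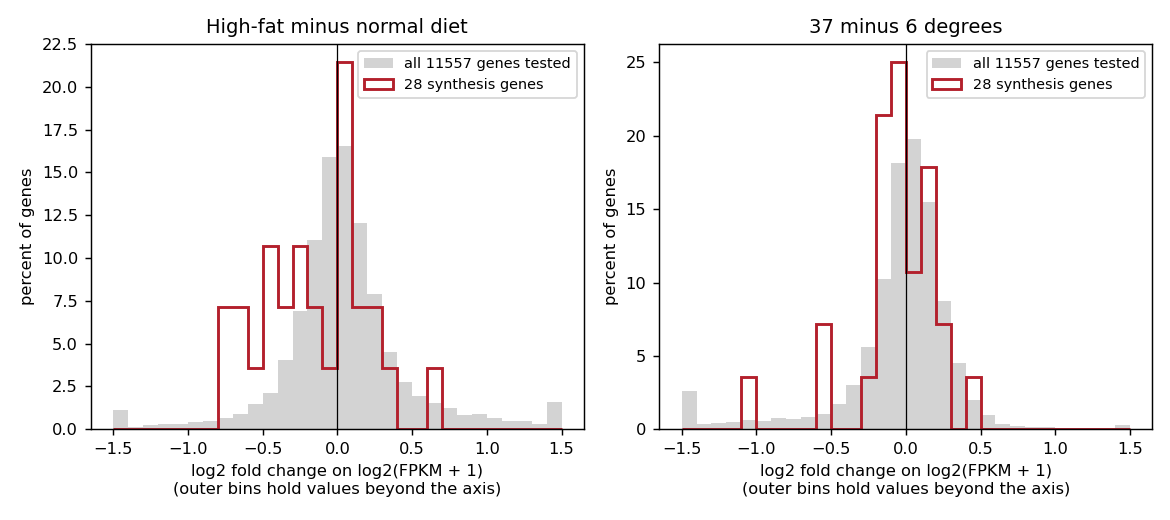
Share of genes (percent) by log2 fold change on log2(FPKM + 1), for the 11557 genes tested (grey) and the 28 synthesis genes (red outline), with high-fat minus normal diet on the left and 37 minus 6 degrees on the right. On the left the red median is -0.17 and the grey median 0.02, and on the right they are -0.03 and 0.01.

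In the mevalonate arm 7 genes were measured, and their diet medians were -0.24 at 37 degrees and -0.03 at 6 degrees. Acat2, the cytosolic thiolase that joins acetyl-CoA units, was at 4.42 FPKM in normal diet, 2.71 in non-tumour and 3.31 in tumour cells at 37 degrees, with 5.38, 3.49 and 2.74 FPKM at 6 degrees. Both normal diet libraries were the highest and the groups did not overlap. Its fold change of -0.54 ± 0.16 did not pass (limma adjusted p = 0.0948). Idi1, the isopentenyl diphosphate isomerase, was at 4.78, 1.32 and 2.73 FPKM at 37 degrees and 3.82, 2.85 and 2.53 FPKM at 6 degrees. Its lowest value, in non-tumour cells at 37 degrees, stood apart from the other high-fat libraries, and the diet groups did not overlap. High-fat minus normal diet came to -0.68 ± 0.23 (limma adjusted p = 0.136), and to -0.39 without the normal diet library at 37 degrees.

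The other genes of this arm overlapped between diets. Hmgcs1, the cytosolic HMG-CoA synthase, stood at 8.62, 7.83 and 9.24 FPKM at 37 degrees and 8.01, 8.99 and 9.2 FPKM at 6 degrees. The tumour library was the highest at each temperature by a small margin, and the fold change was 0.07 ± 0.11. Mvk, mevalonate kinase, ranged from 6.98 to 8.71 FPKM with a fold change of 0.00 ± 0.10, and Mvd, the mevalonate diphosphate decarboxylase, from 1.75 to 3.33 FPKM with 0.01 ± 0.22. Pmvk, phosphomevalonate kinase, was highest in normal diet cells at 37 degrees, at 14.3 FPKM, and between 9.33 and 10.7 FPKM in the other 5 libraries. Fdps, the farnesyl diphosphate synthase, was at 14.6, 14.3 and 12.2 FPKM at 37 degrees and 18.1, 13.6 and 16.9 FPKM at 6 degrees. Its normal diet library was the highest at each temperature, but the diet groups overlapped across temperatures, and the fold change was -0.19 ± 0.13 (limma adjusted p = 0.431).

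From squalene to cholesterol 9 genes were measured, with a diet median of -0.03. Sc5d, the sterol C5 desaturase (GRCm38 chromosome 9, 42251595 to 42264256), was at 12.6, 10.3 and 7.02 FPKM at 37 degrees and 14.7, 7.82 and 9.19 FPKM at 6 degrees. Normal diet cells had the highest value at each temperature and the groups did not overlap. This gave a fold change of -0.62 ± 0.17 (limma adjusted p = 0.0836). Cyp51, the lanosterol demethylase, was at 2.78, 1.55 and 1.83 FPKM at 37 degrees and 2.5, 1.74 and 1.92 FPKM at 6 degrees. Its groups did not overlap either, and the fold change was -0.40 ± 0.14 (limma adjusted p = 0.138). Nsdhl, which removes the C4 carboxyl group of the sterol, was at 8.56, 6.07 and 4.38 FPKM and at 7.52, 6.23 and 6.76 FPKM. The high-fat libraries were again the 4 lowest, with a fold change of -0.41 ± 0.17 (limma adjusted p = 0.205), and -0.18 without the normal diet library at 37 degrees.

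The other 6 overlapped between diets. Fdft1, the squalene synthase, was at 4.15, 4.15 and 4.65 FPKM at 37 degrees and 5.03, 7.62 and 7.57 FPKM at 6 degrees, with the non-tumour and tumour libraries at 6 degrees well above the rest. Its exons overlap those of Ctsb on the opposite strand, and Ctsb was at 169, 220 and 277 FPKM at 37 degrees and 231, 394 and 494 FPKM at 6 degrees. The use of strand is not given in the sources used here, so reads of the overlap cannot be assigned, and the part of Ctsb in the Fdft1 values was not tested. The same limit holds for Cyp51, whose exons overlap Akap9, for Srebf1, which overlaps Rai1, and for Acss2, which overlaps Gss and Ggt7. It also holds for Hmgcs1, Idi1, Lss, Me1 and Elovl6, which overlap genes on the opposite strand that are not annotated as protein-coding. Sqle, the squalene epoxidase, ranged from 0.730 to 1.5 FPKM, with both extremes in normal diet cells. Lss, the lanosterol synthase, was at 2.18 FPKM in normal diet cells at 37 degrees and between 0.868 and 1.36 FPKM elsewhere. Msmo1, the C4 methyl oxidase, ranged from 9.65 to 12.4 FPKM, Hsd17b7, a sterol ketoreductase, from 1.15 to 1.52 FPKM, and Dhcr7, the last reductase of the route, from 3.18 to 5.39 FPKM. The diet fold changes of these 6 genes ran from -0.32 for Lss to 0.29 for Fdft1.

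**Figure D4:**
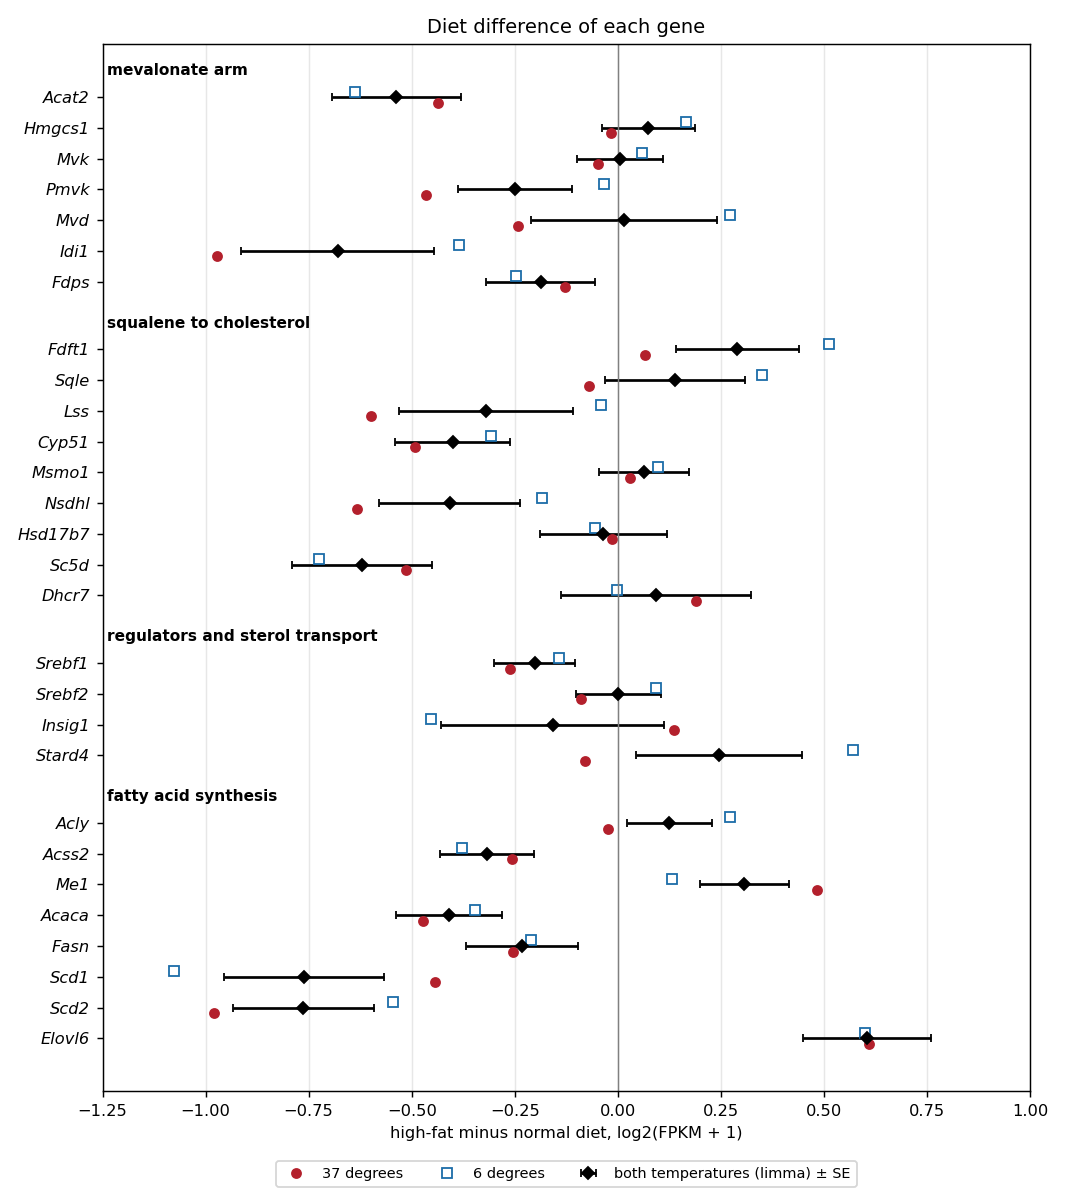
Difference between high-fat and normal diet cells for each of the 28 genes on the log2(FPKM + 1) scale; red circles are the 37 degree libraries, open blue squares the 6 degree libraries, and black diamonds with bars the limma estimate over both with its standard error. Elovl6 lies at the right at both temperatures, and Scd1, Scd2, Idi1, Sc5d and Acat2 lie at the left at both.

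The regulators showed no common shift with diet. Srebf1, which encodes the SREBP-1 factors that drive fatty acid genes, was at 23.2, 21.99 and 16.8 FPKM at 37 degrees and 20.6, 19.4 and 17.8 FPKM at 6 degrees. The order normal diet, non-tumour, tumour was the same at both temperatures, but the diet groups overlapped, with a fold change of -0.20 ± 0.10 (limma adjusted p = 0.266). Srebf2, which encodes the SREBP that drives sterol genes, averaged 10.5 ± 0.39 FPKM (SD, n = 6), with a diet fold change of 0.00 ± 0.10. Insig1, a sterol-sensing retention protein and itself a known SREBP target, was at 5.92, 4.74 and 9.07 FPKM at 37 degrees and 8.80, 7.03 and 5.38 FPKM at 6 degrees. The tumour library was the highest at 37 degrees and the lowest at 6 degrees, with a fold change of -0.16 ± 0.27. Stard4, a soluble sterol carrier, had a diet fold change of 0.25 ± 0.20, and its values are given with the temperature comparison.

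The 8 fatty acid enzymes had a diet median of -0.28. On the log2(FPKM + 1) scale, their 2 stearoyl-CoA desaturases had the most negative fold changes of the 28 genes. In the alternatives other than leaving out 1 library, the lowest values were -0.887 for Idi1, -0.854 for Scd1 and -0.852 for Scd2. This order therefore depends on the setting. Scd2 (chromosome 19, 44293674 to 44306864) was at 37.3, 22.05 and 15.3 FPKM at 37 degrees and 31.1, 19.99 and 22.1 FPKM at 6 degrees. High-fat cells held 0.412 to 0.710 times the normal diet level at the same temperature, and the groups did not overlap. Its fold change of -0.76 ± 0.17 just missed the threshold (limma adjusted p = 0.0517). It passed after quantile normalization (-0.82, limma adjusted p = 0.0431) and without the 2 tumour libraries (-0.67, 0.0249). It also passed without the tumour library at 37 degrees (-0.59, 0.0324) or at 6 degrees (-0.94, 0.0086). It did not pass without any 1 of the other 4 libraries (0.113 to 0.290, with the smallest fold change, -0.545, without the normal diet library at 37 degrees), nor in the other 7 of 9 alternatives (0.0516 to 0.115).

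Scd1 (chromosome 19, 44394455 to 44407879) was at 6.38, 3.75 and 5.20 FPKM at 37 degrees and 13.5, 6.09 and 5.69 FPKM at 6 degrees. Normal diet cells at 6 degrees stood far above all others, and the normal diet library at 37 degrees lay just above the highest high-fat value. The fold change was -0.76 ± 0.19 (limma adjusted p = 0.0708). It was -0.445 without the normal diet library at 6 degrees (limma adjusted p = 0.371), and it passed without the tumour library at 37 degrees (-0.93, 0.0308) and without both tumour libraries (-0.84, 0.0436). Hepatocytes are rich in Scd1, and the hepatocyte marker sum was also highest in normal diet cells at 6 degrees, at 746 FPKM against 219 to 367 FPKM elsewhere. The part of those cells in the Scd1 values was not tested. The desaturase genes are near-identical over parts of their length, so how reads were divided between them is uncertain.

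Elovl6, which elongates palmitate to stearate (chromosome 3, 129532355 to 129638495), ran the other way. Its values were 0.932, 2.1 and 1.79 FPKM at 37 degrees and 0.598, 1.25 and 1.6 FPKM at 6 degrees. High-fat cells held 1.93 to 2.68 times the normal diet level at the same temperature, and the groups did not overlap. Its fold change was 0.60 ± 0.16 (limma adjusted p = 0.0726), nearly the same at 37 degrees (0.61) and at 6 degrees (0.60). Endothelial markers were also higher with diet, with a median fold change of 1.56. The macrophage median was 1.27, but in non-tumour cells alone it was -0.54 at 37 degrees and 0.20 at 6 degrees. The part of endothelial cells and macrophages in the Elovl6 values was not tested. Between temperatures, the Elovl6 fold change was 0.28 ± 0.15 (37 minus 6 degrees, limma adjusted p = 0.356).

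Acaca, the acetyl-CoA carboxylase of the committed step, was at 4.15, 3.09 and 2.37 FPKM at 37 degrees and 3.31, 2.73 and 2.07 FPKM at 6 degrees. The order normal diet, non-tumour, tumour held at both temperatures and the diet groups did not overlap. The fold change was -0.41 ± 0.13 (limma adjusted p = 0.111). Acss2, the acetyl-CoA synthetase that uses acetate, was at 6.88, 5.68 and 5.52 FPKM and at 6.31, 4.79 and 4.46 FPKM, in the same order and without overlap, with a fold change of -0.32 ± 0.11 (limma adjusted p = 0.147). Fasn, the fatty acid synthase, was at 5.51, 3.82 and 5.18 FPKM and at 4.70, 3.98 and 3.87 FPKM. Normal diet cells were the highest at each temperature, but the groups overlapped across temperatures (-0.23 ± 0.14, limma adjusted p = 0.348).

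For the genes that supply acetyl-CoA from citrate and NADPH, the fold changes were above 0 and did not pass. Acly, which splits citrate to acetyl-CoA, was at 34.1, 37.7 and 29.9 FPKM at 37 degrees and 33.4, 43.1 and 38.2 FPKM at 6 degrees. Its non-tumour library was the highest at each temperature, and the fold change was 0.12 ± 0.10. Me1 was at 36.8, 49.8 and 54.0 FPKM at 37 degrees and 32.7, 33.0 and 39.0 FPKM at 6 degrees. Both high-fat libraries lay above normal diet at each temperature, though by little in non-tumour cells at 6 degrees. Its diet fold change was 0.31 ± 0.11 (limma adjusted p = 0.144).

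Taken at each temperature separately, both high-fat libraries lay below the normal diet library at 37 and at 6 degrees for 12 of the 28 genes (42.9%, against 19.9% of all genes), namely the 9 above with Fdps, Srebf1 and Fasn. Both lay above it at each temperature for 3 (10.7%, against 25%), namely Fdft1, Me1 and Elovl6. The median difference of the 28 was -0.19 at 37 degrees and -0.05 at 6 degrees, against 0.02 and 0.03 over all genes. The 2 temperatures use separate normal diet libraries, whereas the 2 high-fat regions share 1 at each temperature. The diet difference itself was not shown to vary with temperature. The error in the test of this came from differences between the 2 high-fat regions at each temperature, so region differences widen it. No gene of the 11557 passed that test (0%; unadjusted p under 0.05 for 219 higher and 156 lower, 1.89% and 1.35%), and of the 28 none reached an unadjusted p under 0.05. The difference, 37 minus 6 degrees, was above 0 for 10 of the 28 (48.4% of all genes) and below 0 for 18 (51.6%). The departures farthest from 0 among the 28 were -0.65 ± 0.31 for Stard4 and 0.63 ± 0.31 for Scd1.

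Between the tumour and the non-tumour region of high-fat livers, none of the 28 genes passed in limma, where 52 genes (0.45%) passed in all, and none reached an unadjusted p under 0.05 in either direction (6.36% of all genes with higher values, 3.76% with lower ones). Tumour minus non-tumour fold changes ran from -0.28 for Acaca to 0.28 for Idi1, with a median of -0.01 against -0.02 over all genes. They were above 0 for 13 of the 28 (46.1% of all genes) and below 0 for 15 (53.9%). Acaca was lower in tumour cells at both temperatures. Srebf1 was too, with a fold change of -0.24 (limma adjusted p = 0.544). Differences of this size did not exceed the spread between these libraries.

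In the temperature comparison, Stard4 was the 1 gene of the 28 that passed (3.57%, against 5.13% of all genes, with 59 higher, 0.511%, and 534 lower, 4.62%). Stard4 (chromosome 18, 33199355 to 33213862) was at 0.721, 0.614 and 0.645 FPKM at 37 degrees and 1.65, 3.19 and 2.70 FPKM at 6 degrees. The 3 values at 37 degrees were close together, all lay below those at 6 degrees, and the normal diet library was the lowest of the latter. Its level at 37 degrees fell by 1.06 ± 0.19 on the log2(FPKM + 1) scale (SE, 3 pairs, limma adjusted p = 0.0440). The call is close to the threshold. It was lost with a pseudocount of 0.1 FPKM (-1.74, limma adjusted p = 0.0511), with quantile normalization (-0.88, 0.102) and when any 1 of the 4 high-fat libraries was left out (0.118 to 0.247). All 16 stellate markers, Lrat among them, had temperature fold changes above 0 (52.9% of all genes), with a median of 0.36, and 4 passed (0.511% of all genes). At 37 degrees all 16 endothelial markers and 10 of 14 tested macrophage markers fell, with list medians of -3.02 and -2.55. The part of endothelial cells and macrophages in the Stard4 values was not tested.

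**Figure D5:**
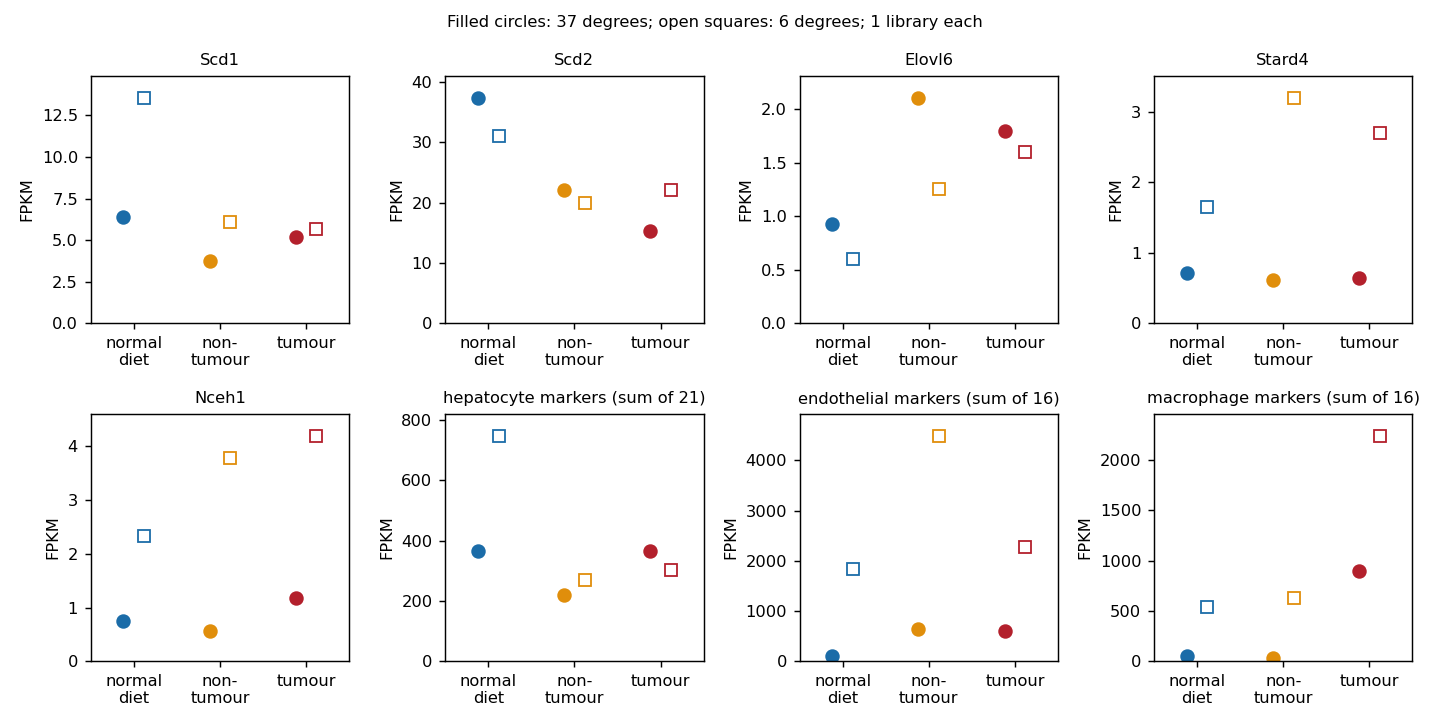
FPKM of 5 genes and summed FPKM of 3 marker lists by source, 1 library per point; filled circles are 37 degrees and open squares 6 degrees. Scd2 is highest and Elovl6 lowest in normal diet cells at both temperatures, Stard4 and Nceh1 are higher at 6 degrees in each source, and the endothelial and macrophage sums are also higher at 6 degrees in each source.

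The other 27 genes did not pass for temperature. Me1 levels were higher at 37 degrees in each source (0.40 ± 0.10, limma adjusted p = 0.108), by 0.17 in normal diet, 0.58 in non-tumour and 0.46 in tumour cells. Fdft1 levels were lower in each (-0.52 ± 0.14, limma adjusted p = 0.119), as were those of Scd1 (-0.56 ± 0.18, limma adjusted p = 0.175). Levels were higher at 37 degrees in all 3 sources for 5 of the 28 genes (17.9%, against 23.4% of all genes) and lower in all 3 for 4 (14.3%, against 21.8%). At an unadjusted p under 0.05, 1 was higher (8.51% of all genes) and 3 were lower (12.1%). The fold change was above 0 for 11 of the 28 (52.9% of all genes) and below 0 for 17 (47.1%). The median temperature fold change was -0.03 over the 28 genes and 0.01 over all genes.

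Other genes of these pathways were taken from lists outside the 28. Of 9 tested genes among 10 further sterol synthesis genes listed, none passed in any of the 4 comparisons in limma. Of all genes, 10.7% passed for diet, 0.45% for region, 5.13% for temperature and 0% for the diet by temperature term. For diet, 1 of the 9 had an unadjusted p under 0.05, with a higher value (16.5% of all genes). The most abundant were Ggps1 (24.4 to 31.9 FPKM), Lbr (21.6 to 29.2 FPKM), Ebp (20.2 to 26.1 FPKM) and Dhdds (9.89 to 13.9 FPKM), all in overlapping ranges between diets. Of 15 genes that control SREBP activity none passed either. At an unadjusted p under 0.05, 1 of them was higher for diet (16.5% of all genes). For region 1 was higher (6.36%) and 1 lower (3.76%). For temperature 2 were lower (12.1%), and for the diet by temperature term 1 was lower (1.35%).

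Of 19 tested genes of sterol uptake, storage and efflux, 1 passed for diet, where 10.7% of all genes did, and 1 for temperature, where 5.13% did. Cyp27a1, the mitochondrial sterol 27-hydroxylase (chromosome 1, 74713574 to 74737892), was at 82.2, 57.5 and 51.8 FPKM at 37 degrees and 76.6, 39.6 and 37.8 FPKM at 6 degrees. The normal diet libraries were clearly the highest. Cyp27a1 was lower by 0.77 ± 0.11 in high-fat than in normal diet cells (limma adjusted p = 0.0163). The call was lost when the 6 degree library of normal diet or of non-tumour cells was left out. Of the same list, Nceh1, a cholesteryl ester hydrolase (chromosome 3, 27182965 to 27284608), passed for temperature. Its values were 0.745, 0.572 and 1.18 FPKM at 37 degrees and 2.34, 3.79 and 4.19 FPKM at 6 degrees, with no overlap, and fell at 37 degrees by 1.27 ± 0.17 (limma adjusted p = 0.0208). The call was lost when any 1 of the 4 high-fat libraries was left out (0.0522 to 0.126). As for Stard4, the endothelial and macrophage markers were lower at 37 degrees, and their part was not tested. Apoe, which carries lipids out of cells, was the most abundant gene of the list, at 7048 to 8284 FPKM.

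Of 20 tested further fatty acid genes, 1 was called lower and 1 higher for diet, where 4.17% and 6.57% of all genes were, and 1 lower for temperature, where 4.62% were. Fads1, the delta-5 desaturase of polyunsaturated fatty acids (chromosome 19, 10182888 to 10196877), was at 50.8, 36.7 and 27.7 FPKM at 37 degrees and 50.6, 35.6 and 32.2 FPKM at 6 degrees. Both normal diet libraries were nearly equal and above all others, and the tumour library was the lowest at each temperature. It fell by 0.61 ± 0.09 (limma adjusted p = 0.0176), and did not pass without either normal diet or either non-tumour library (0.0610 to 0.135). Its neighbour Fads2, the delta-6 desaturase, was at 80.5, 63.6 and 38.9 FPKM and at 69.3, 53.0 and 47.8 FPKM, again without overlap (-0.57 ± 0.13, limma adjusted p = 0.0592).

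Hacd1, a dehydratase of fatty acid elongation (chromosome 2, 13850282 to 14056135), was at 21.2, 29.0 and 33.1 FPKM at 37 degrees and 18.7, 21.7 and 26.4 FPKM at 6 degrees. Every high-fat library exceeded both normal diet libraries. It rose by 0.43 ± 0.09 (limma adjusted p = 0.0437), and lost the call when any 1 of the 6 libraries was left out (0.0688 to 0.255). Thrsp, a lipogenic regulator (chromosome 7, 97412938 to 97417730), was at 1.18, 1.35 and 2.56 FPKM at 37 degrees and 13.4, 12.5 and 6.19 FPKM at 6 degrees. It fell at 37 degrees by 2.09 ± 0.35 (limma adjusted p = 0.0358), with no overlap, and the call was lost when any 1 of the normal diet or non-tumour libraries was left out (0.0963 to 0.201). Of 18 tested hepatocyte markers none passed for temperature in limma, where 5.13% of all genes did. At an unadjusted p under 0.05, 4 had lower values at 37 degrees (12.1% of all genes), and the list median was -1.01. The part of hepatocytes in the Thrsp values was not tested.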

How the data were processed

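RNA sequencing of 6 libraries of sorted mouse hepatic stellate cells was used. The submitters' processing notes list TopHat2 2.1.1, Bowtie2, Cuffdiff 2.2.1 and the build mm10. The authors deposited FPKM per gene symbol. Annotation, strand and scaling within Cuffdiff are not stated there. Values of entries with the same symbol were added. Of 3296 low genes, 1377 (41.8%) had values at whole steps within 0.02 on the log2 scale, and those steps, scaled on 373 single-transcript genes, gave the depth.

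Values were analysed as log2(FPKM + 1) with limma 3.58.1 (R 4.3.3) over all genes whose mean reached 1 FPKM, leaving out 1325 small RNA symbols. Source and temperature were additive terms, with 2 residual degrees of freedom and 5.37 in all after empirical Bayes moderation with an intensity trend. A second model held diet, temperature and the diet by temperature term, without a region term. P-values were Benjamini-Hochberg adjusted over 11557 genes, with 0.05 as the threshold. The procedure was tested on simulated data. Coordinates are GENCODE M21 (GRCm38). The text names all 28 members, each gene of 4 related lists that passed, up to 4 per list by mean FPKM, and the defining markers Alb, Lrat, Pecam1, Ptprc and Krt19. Ctsb was added after its overlap was seen. Members and lists were chosen with earlier results of these data known. Alternatives covered the pseudocount, the filter, the scaling, small RNA symbols, the model terms and each library left out.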

Additional observations from a re-analysis of the deposited data

How the results depend on the processing

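No paired analysis was possible because no group has numbered replicates; the source term already sets the 37 degree library of each source against its own 6 degree library, in 3 pairs. The number of genes passing for diet was 1241, and became 655 with no filter on low values, 823 with both high-fat regions as 1 diet, 656 without the non-tumour libraries, and 275 to 1357 without any 1 library. Of the 28 genes, 0 passed for diet, 1 with quantile normalization, 2 without the tumour libraries, and 0 to 2 without any 1 library. For tumour against non-tumour, the 52 genes became 0 with a pseudocount of 0.1 FPKM, with no filter, with a mean of at least 5 FPKM or with only the 4 high-fat libraries in the fit, 1 with small RNA genes kept, and 0 to 165 without any 1 library. For temperature, 593 became 0 with no filter or without the source term, 330 with a mean of at least 5 FPKM, and 62 to 475 without any 1 library. The 1 member passing for temperature became 0 with a pseudocount of 0.1 FPKM, no filter, a mean of at least 5 FPKM (which leaves Stard4 untested), quantile normalization, small RNA genes kept or no source term, and 0 to 1 without any 1 library. The diet by temperature count of 0 became 2 with small RNA genes kept, and stayed at 0 in the 4 fits without 1 high-fat library; without a normal diet library this term could not be fitted. Diet fold changes near 0 turned: Mvk to -0.0037 with quantile normalization and -0.12 without the non-tumour libraries, Srebf2 to -0.0256 and -0.0098 in the same fits, and Mvd to -0.10 without the tumour libraries. Without any 1 library the diet fold change ran from -0.0489 to 0.0584 for Mvk, -0.0895 to 0.0914 for Srebf2, -0.24 to 0.27 for Mvd, -0.13 to 0.31 for Dhcr7, -0.10 to 0.033 for Hsd17b7, -0.016 to 0.16 for Hmgcs1, -0.0697 to 0.35 for Sqle, -0.45 to 0.14 for Insig1, -0.0792 to 0.57 for Stard4 and -0.0235 to 0.27 for Acly. Without a turn of sign, it also moved by over 1.5 times when the normal diet library at 37 degrees was left out for Idi1 (-0.39), Nsdhl (-0.18), Pmvk (-0.0331), Lss (-0.0407), Me1 (0.13) and Fdft1 (0.51), and when that at 6 degrees was left out for Scd1 (-0.445), Nsdhl (-0.63), Pmvk (-0.465), Lss (-0.60), Me1 (0.48) and Fdft1 (0.0667). Without 1 high-fat library it did so for Nsdhl (-0.26), Pmvk (-0.16) and Lss (-0.15) without tumour at 37 degrees, Lss (-0.49) without tumour at 6 degrees and Fasn (-0.15) without non-tumour at 37 degrees, and it ran from -0.30 to -0.0778 for Fdps and from 0.0038 to 0.12 for Msmo1. The cause was not tested. Lower counts with fewer libraries come with 1 residual degree of freedom. Depth limits most the genes near or below 1 FPKM, such as Elovl6, Stard4, Sqle, Lss and Hsd17b7. The lowest values of Elovl6 and Stard4 were 0.598 and 0.614 FPKM.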

Other observations

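Genes of the liver X receptor axis, which senses oxysterols, were also measured. Nr1h3, the receptor gene best known from macrophages and hepatocytes, was at 6.65, 8.2 and 11.5 FPKM in normal diet, non-tumour and tumour cells at 37 degrees and 9.28, 13.8 and 27.4 FPKM at 6 degrees. The tumour library was the highest at each temperature. Its diet fold change was 0.74 ± 0.17 (limma adjusted p = 0.0548) and its temperature fold change -0.76 ± 0.16 (limma adjusted p = 0.0676). The macrophage marker sum was 49.1, 35.8 and 893 FPKM at 37 degrees, where non-tumour lay below normal diet, and 535, 631 and 2231 FPKM at 6 degrees, and its part in the Nr1h3 values was not tested. Abca1, a cholesterol exporter, ranged from 7.34 to 10.7 FPKM with a diet fold change of -0.02 ± 0.13. Abcg1, another exporter, was at 18.7, 21.03 and 18.1 FPKM at 37 degrees and 22.2, 31.1 and 33.5 FPKM at 6 degrees. Lpcat3, a phospholipid acyltransferase, was at 29.0, 23.1 and 18.5 FPKM and at 28.6, 28.5 and 24.8 FPKM. These genes were chosen after their values were seen.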
